A study of Mus musculus with 8 samples.

Results

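Conventional CD4 T cells of the spinal cord were compared with those of the brain at day 50 of EAE, experimental autoimmune encephalomyelitis, in which T cells attack the myelin of immunised mice as they do in multiple sclerosis. All barcodes of both day 50 RNA libraries entered if they held at least 500 detected genes and at most 10% of counts from mitochondrial genes. This kept 348 of 372 barcodes from brain and 1620 of 1651 from spinal cord, 1968 cells out of 22247 barcodes in the series. The mice carried Foxp3-Cre-YFP, a reporter and recombinase driven by Foxp3, the factor that defines regulatory T cells. Brain (with the meninges taken off) and spinal cord were digested with enzymes, and cells positive for CD44 and the T cell receptor β chain but negative for the Foxp3 reporter and CD11b were sorted. These are antigen-experienced helper T cells without regulatory T cells. Day 50 is the chronic phase of the disease. The other 2 RNA libraries came from the same tissues and genotype at day 14, the acute phase, and each tissue and day was 1 library, with no number of mice given in the labels.

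Helper T cells that have entered the central nervous system differ in the cytokines they make. Th17 cells secrete IL-17A, Th1 cells depend on T-bet and secrete interferon-γ, and some helper cells take on granzymes and other genes of killer cells. Cells that stay in a tissue as resident memory cells carry CD69, which holds back the exit receptor S1PR1, and often CXCR6. Immediate early genes such as Fos and Jun are read within minutes of a stimulus, through the T cell receptor or through stress, and their transcripts are short-lived.

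Levels are in CPM, the unique molecular identifiers (UMIs) of a gene scaled to 1000000 RNA UMIs in its library. The log2 ratio is spinal cord over brain, so that a negative value is lower in spinal cord. Throughout, "higher" and "lower" calls need a ratio of at least 1.5-fold with an exact 95% interval that leaves out equal levels, and genes with fewer than 10 UMIs over both libraries were not compared. All intervals cover counting error only. With 1 library per tissue there was no test across animals and no p-value, and a difference between tissues cannot be told apart from one between libraries. Detection is the share of cells with a UMI of a gene after each cell was thinned to 2000 UMIs, which kept 250 brain cells and 1493 spinal cord cells and left out 98 and 127 shallower ones. Every cell held a T cell transcript, so that a background share from free RNA could not be read from cells without these genes.

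The brain library held 1177903 RNA UMIs and the spinal cord library 6078142, with 3014.5 and 3470.5 UMIs in the median cell. Mitochondrial genes took 2.40% and 2.25% of UMIs and ribosomal protein genes 36.4% and 37.6%. No barcode was shared by these libraries, and at most 5 were shared by either with a day 14 library. A Cd3 or T cell receptor constant-chain UMI was present in 348 of 348 brain cells and 1620 of 1620 spinal cord cells. None of the 12 genes of the receptor complex and CD4 list was called higher or lower, and their median log2 ratio was 0.00. Foxp3 had 0 UMIs in brain and 1 in spinal cord.

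Of 10309 genes compared, 268 were higher in spinal cord (2.60%) and 455 were lower (4.41%), 7.01% in all, while the median log2 ratio of all of them was 0.04. These shares of all genes are the measure against which the list counts below are to be read. Among the 2161 genes at a mean of 50 CPM or more, 21 were higher (0.972%) and 76 lower (3.52%), 4.49% in all, so that lower genes outnumbered higher ones more among abundant transcripts. Of the higher genes, 110 could be compared by detection, and all 110 were detected in a larger share of spinal cord cells. Of the 173 lower genes that could be compared, 171 were detected in a smaller share. Detection is read from UMIs of the same cells, so the same direction is no separate support. By the detection rule (a 1.5-fold ratio with intervals apart) 28 of the 110 and 58 of the 173 passed. Between 2 cells lay over 50% of the higher library's UMIs for 8 of the higher and 40 of the lower genes. Leaving out the same share of the richest cells for each gene, 2 in brain and 9 in spinal cord, gave 316 higher and 405 lower genes. Leaving out the 2 richest cells of each library for each gene gave 694 and 203. That setting removes 2 of 348 brain cells but 2 of 1620 spinal cord cells for each gene. Weighting each cell equally gave 481 and 559.

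**Figure D1:**
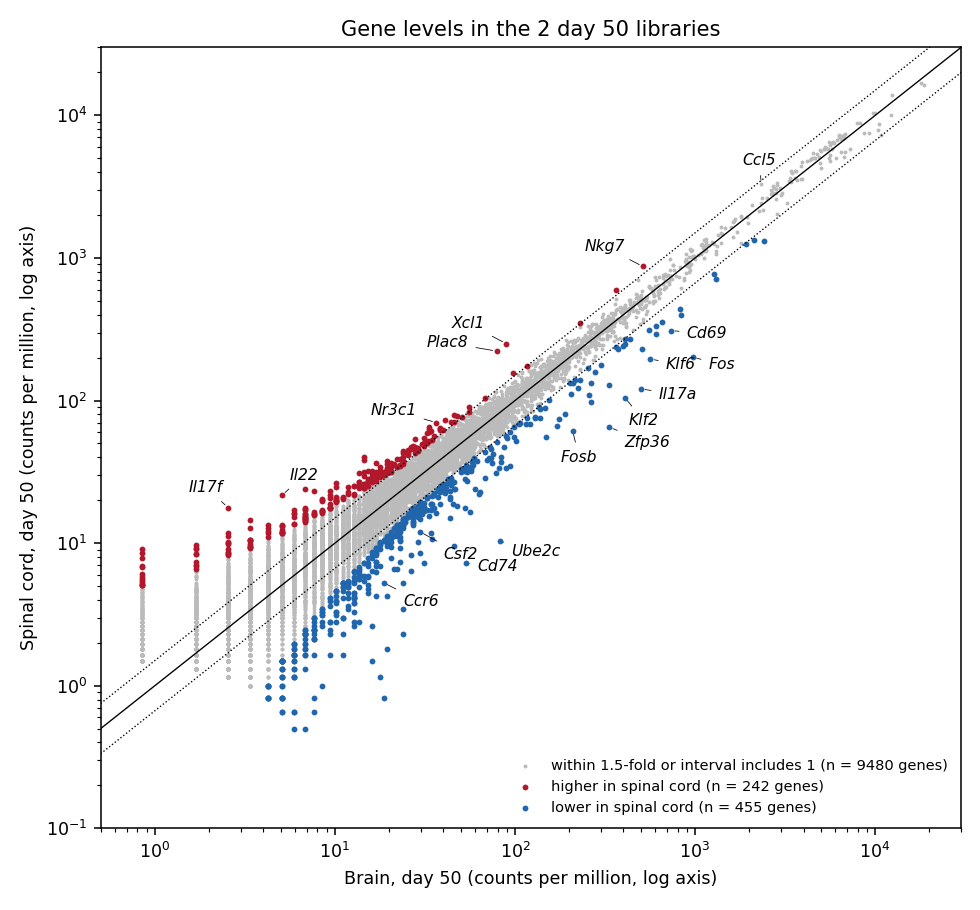
Levels of the compared genes that had a UMI in both day 50 libraries, brain on the x axis and spinal cord on the y axis, in CPM on log axes. The solid line marks equal levels and the dotted lines 1.5-fold; blue points such as Fos (975 CPM in brain, 201 in spinal cord) lie below, red points such as Xcl1 (89.1 and 251) above, and genes at 0 UMIs in a library are not drawn.

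The immediate early genes were the group with the most lower members. Their products are transcription factors of the AP-1 and EGR families and the feedback proteins that follow them. Promoters of 4 lower genes, 3 immediate early genes and the cytokine gene Il17a, are shown as examples of windows that hold the short motifs named below. Each is the 250 bases before the RefSeq transcript start (build GRCm38.p6), written 5′ to 3′ on the gene's own strand, with these motifs in capitals: the serum response element core (the CArG box), TGACG, which is the core of the cAMP response element, and TATAAA. Both strands were searched, and a TGACG on the other strand reads CGTCA. Fos and Il17a lie on the plus strand, Zfp36 and Dusp1 on the minus strand.
Fos promoter, chr12:85473640-85473889: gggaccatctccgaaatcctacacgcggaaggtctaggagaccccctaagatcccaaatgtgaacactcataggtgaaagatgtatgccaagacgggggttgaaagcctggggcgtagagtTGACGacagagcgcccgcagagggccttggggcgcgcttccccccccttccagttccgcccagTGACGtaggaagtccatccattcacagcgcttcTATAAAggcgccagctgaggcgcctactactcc
Zfp36 promoter, chr7:28379229-28379478: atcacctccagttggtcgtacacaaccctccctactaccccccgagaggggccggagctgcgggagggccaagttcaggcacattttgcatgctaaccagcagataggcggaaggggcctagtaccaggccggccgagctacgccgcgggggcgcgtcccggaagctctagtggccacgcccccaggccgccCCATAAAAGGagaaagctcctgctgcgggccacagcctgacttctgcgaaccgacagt
Dusp1 promoter, chr17:26508473-26508722: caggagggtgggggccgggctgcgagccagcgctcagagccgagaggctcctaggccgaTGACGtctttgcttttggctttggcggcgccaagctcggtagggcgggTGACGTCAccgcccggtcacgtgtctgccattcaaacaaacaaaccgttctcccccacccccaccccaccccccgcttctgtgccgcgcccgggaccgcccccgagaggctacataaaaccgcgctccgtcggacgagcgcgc
Il17a promoter, chr1:20730655-20730904: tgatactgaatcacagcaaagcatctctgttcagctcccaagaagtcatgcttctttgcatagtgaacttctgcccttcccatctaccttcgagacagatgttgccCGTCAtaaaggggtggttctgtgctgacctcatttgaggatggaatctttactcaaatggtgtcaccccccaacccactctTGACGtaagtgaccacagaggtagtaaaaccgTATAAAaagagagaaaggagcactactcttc

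In these windows Fos held TGACG 129 to 125 and 66 to 62 bases before the start and TATAAA 33 to 28 bases before it. Zfp36 held a CArG box 58 to 49 bases before its start. Dusp1 held TGACG 191 to 187 bases before its start, and the sites from 143 to 139 and from 140 to 136 overlap to form TGACGTCA. Il17a, the Th17 cytokine described further on, held CGTCA 144 to 140, TGACG 63 to 59 and TATAAA 31 to 26 bases before its start. Of 18 immediate early genes with a promoter in the table, 8 held TGACG (44.4%), against 17.9% of all 27025 promoters and 29.7% of the 8087 promoters of compared genes. Of the 11 of these genes that were lower, 5 held it, so TGACG was not confined to lower genes. A CArG box was found in 1 of the 18, Zfp36, against 1.40% of all promoters and 1.04% of those of compared genes. TGACGTCA was found in 3 of the 18 (Dusp1, Btg2 and Ppp1r15a) against 1.62% and 3.03%, and TATAAA in 1 of the 18 (5.56%), Fos, against 13.0% and 6.02%. These are matches of letters in a window and not measured sites.

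Of the 20 immediate early genes, 13 were lower and none was higher, with a median log2 ratio of -0.86 against 0.04 for all genes. Zfp36, whose protein binds AU-rich messenger RNAs and speeds their decay, stood at 334 CPM in brain (95% interval 301.5 to 368) and 65.0 CPM in spinal cord (58.7 to 71.7), a log2 ratio of -2.36 (-2.57 to -2.15). Fos, an AP-1 subunit, stood at 975 CPM (919 to 1033) in brain and 201 CPM (190 to 213) in spinal cord, a log2 ratio of -2.28 (-2.39 to -2.16). Its relative Fosb stood at 209 CPM and 61.4 CPM, a log2 ratio of -1.77 (-2.0 to -1.53). For these 3 genes the intervals of the levels lay far apart.

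The Krüppel-like factor Klf6 stood at 565 CPM in brain and 195 CPM in spinal cord, a log2 ratio of -1.53 (-1.67 to -1.40). Atf3, a stress-induced transcription factor, stood at 94.2 CPM and 34.5 CPM, a log2 ratio of -1.45 (-1.79 to -1.10). The phosphatase gene Dusp1, which shuts off MAP kinases, stood at 509 CPM and 230.2 CPM, a log2 ratio of -1.14 (-1.28 to -1.0). Jun, the partner of Fos, was also lower, from 610 CPM to 295 CPM (log2 ratio -1.05, -1.17 to -0.92). The remaining lower members, Ier2, Nfkbia, Dusp2, Btg2, Egr1 and Jund, had log2 ratios from -0.90 to -0.63. Fosl2, Junb, Ier3, Ier5, Ier5l, Csrnp1 and Ppp1r15a were not called, with log2 ratios from -0.33 to 0.25. The AP-1 family was therefore uneven: Junb, the member with the most UMIs, stood at 5024 CPM in brain and 4256 CPM in spinal cord (log2 ratio -0.24, -0.28 to -0.20).

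The difference was spread over the cells. At 2000 UMIs the median brain cell held 28 UMIs of the immediate early list (quartiles 19 to 37) and the median spinal cord cell 18 (12 to 26). Fos was detected in 58.0% of brain cells (145 of 250, 51.6 to 64.2) and 24.6% of spinal cord cells (368 of 1493, 22.5 to 26.9), against 62.1% and 36.2% without thinning. Cells with at least 10 Fos UMIs numbered 31 of 348 in brain and 6 of 1620 in spinal cord, and they held 52.2% and 6.55% of the Fos UMIs. Of 19 list members compared by detection, 6 were detected in a smaller share of spinal cord cells by the detection rule (a 1.5-fold ratio with intervals apart), and none in a larger share. Over all 3997 genes compared so, 1.80% passed as lower, 1.58% as higher and 3.38% in either direction.

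The difference was also present within cells split by other transcripts. Among cells with a UMI of Nkg7, a granule protein of killer cells, the median immediate early count was 27 in brain (n = 99 cells) and 17 in spinal cord (n = 832). Among cells without Nkg7 it was 28 (n = 151) and 18 (n = 661). Cells with an Il17a UMI had medians of 23 (n = 25) and 12 (n = 35), and cells without one 28 (n = 225) and 18 (n = 1458). Brain cells thus had the larger count in each of these classes.

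**Figure D2:**
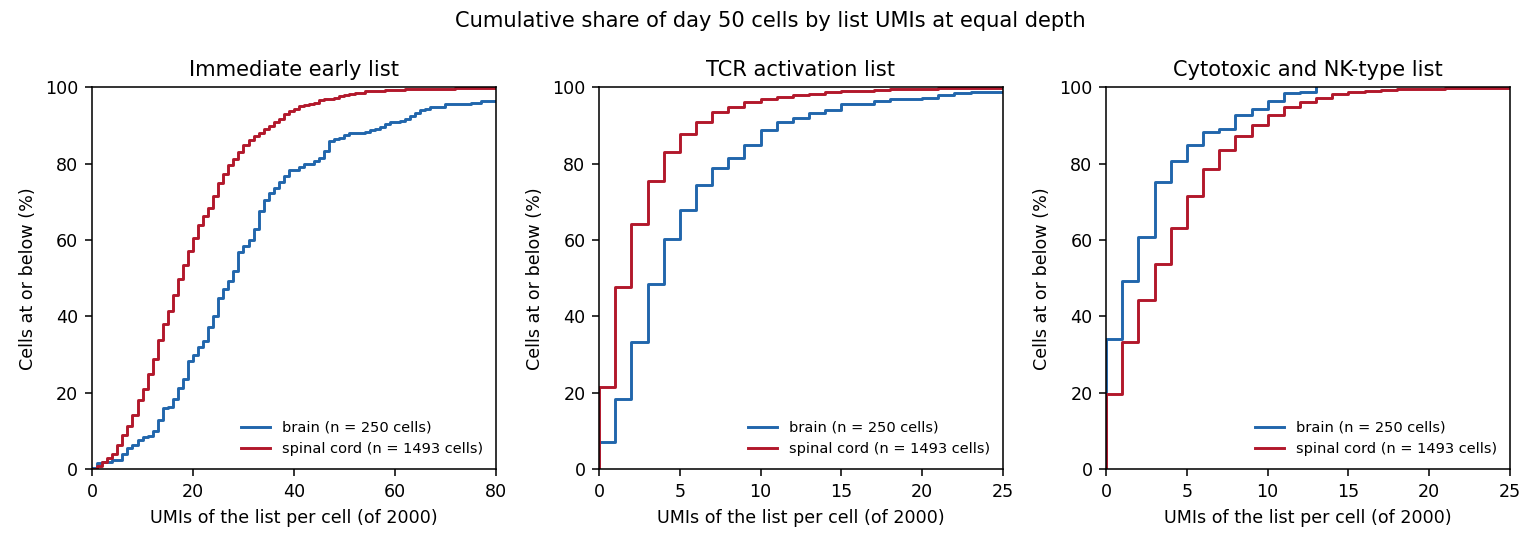
Cumulative share of cells (y axis, %) by the UMIs of a gene list per cell after thinning to 2000 UMIs (x axis), for 250 brain cells (blue) and 1493 spinal cord cells (red). The brain curve lies to the right for the immediate early list (medians 28 and 18) and the T cell receptor activation list (4 and 2) and to the left for the cytotoxic list (2 and 3).

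Genes read after T cell receptor engagement were lower in part. Of the 17 genes of the TCR activation list, 9 were lower (against 4.41% of all genes) and none was higher. The median log2 ratio was -0.63. Nr4a1, an orphan nuclear receptor induced by receptor signalling, stood at 171 CPM in brain and 66.6 CPM in spinal cord, a log2 ratio of -1.36 (-1.61 to -1.11). Cd69, also an early activation antigen, stood at 737 CPM and 310 CPM, a log2 ratio of -1.25 (-1.37 to -1.13). Irf4, a transcription factor that scales with receptor signal strength, stood at 34.0 CPM and 11.7 CPM, a log2 ratio of -1.54 (-2.12 to -0.94). Each of these 3 genes was also detected in a smaller share of spinal cord cells, Cd69 in 33.8% against 64.4%.

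Egr2, which restrains activated T cells, was lower on few counts (16 UMIs in brain, log2 ratio -1.46, -2.38 to -0.49). Il2, the T cell growth factor, was called lower (74.7 CPM and 36.4 CPM, log2 ratio -1.04), but 1 brain cell held 63 of its 88 UMIs there and its detection was 6.40% in brain and 6.36% in spinal cord. The related receptors Nr4a2 and Nr4a3 were not called, with log2 ratios of -0.26 and -0.36, nor was Tnf at -0.56. Immediate early and TCR activation genes overlap in Egr1 only. Irf4 is also counted among the Th17 regulators, and Cd69 and Nr4a1 among the residency genes. Without the 2 richest cells of each library per gene, 4 of the 17 were lower and 1 was higher. With the same share of richest cells left out in each library, 8 of the 17 were lower and none was higher.

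Costimulatory receptors and ligands had 6 of 12 members lower (against 4.41% of all genes) and none higher, with a median log2 ratio of -0.53. Cd28, the main costimulatory receptor, stood at 407 CPM in brain and 271 CPM in spinal cord (log2 ratio -0.59, -0.73 to -0.44). Cd40lg, the ligand by which helper cells license B cells and dendritic cells, stood at 278 CPM and 159 CPM (log2 ratio -0.80, -0.99 to -0.62). Tnfrsf4, which encodes OX40, stood at 215 CPM and 139 CPM (log2 ratio -0.63, -0.83 to -0.42). Cd40lg, Tnfrsf4 and Tnfrsf9 are also members of the TCR activation list, so the counts of these lists are not separate. Icos, Cd2, Cd27 and Tnfrsf18 had log2 ratios from 0.04 to 0.22, so the list did not differ as a block. Without the cells that had an Il17a UMI (38 in brain, 45 in spinal cord), 2 of the 12 were lower, with a median of -0.12. Without the 2 richest cells of each library per gene 1 of 12 was lower. With the same share of richest cells left out in each library, 5 of 12 were lower, with a median of -0.49.

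Some genes that respond to glucocorticoids and stress were lower, and the receptor gene was higher. Of 9 list members compared, 5 were lower and 1, the receptor, was higher, with a median log2 ratio of -0.83. Tsc22d3, which encodes the glucocorticoid-induced protein GILZ, stood at 175 CPM in brain and 74.5 CPM in spinal cord, a log2 ratio of -1.23 (-1.47 to -0.99). Ddit4, a stress-induced inhibitor of mTORC1, stood at 22.9 CPM and 9.21 CPM, a log2 ratio of -1.31 (-2.0 to -0.60). Nr3c1, the glucocorticoid receptor, stood at 36.5 CPM and 70.1 CPM, a log2 ratio of 0.94 (0.49 to 1.43), and was detected in 6.40% of brain and 13.7% of spinal cord cells. Fkbp5 and Txnip, also glucocorticoid targets, were not called (log2 ratios 0.22 and -0.01).

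The exit and homing genes did not move as a group. Klf2, the transcription factor that drives S1pr1, stood at 408 CPM in brain (372 to 446) and 105 CPM in spinal cord (96.7 to 113), a log2 ratio of -1.96 (-2.13 to -1.79). It was detected in 34.0% of brain cells and 13.3% of spinal cord cells. S1pr1, the sphingosine-1-phosphate receptor through which T cells leave tissue, stood at 90.8 CPM and 95.4 CPM (log2 ratio 0.07, -0.23 to 0.38) and was not called. Ccr7, the lymph node homing receptor, stood at 47.5 CPM and 18.3 CPM, a log2 ratio of -1.38 (-1.86 to -0.89). Of 10 list members compared, only Klf2 and Ccr7 were called, and the median log2 ratio was -0.07. After thinning before the sum, S1pr1 was among the called members, of which 1 was higher and 3 were lower.

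Among 12 chemokine receptors, 3 were lower (against 4.41% of all genes) and none higher. They were Ccr7, Cxcr4, the receptor for CXCL12 (62.8 CPM and 22 CPM, log2 ratio -1.51, -1.93 to -1.08), and Ccr6. Ccr6 is the CCL20 receptor typical of Th17 cells. Cxcr3 and Cxcr6, receptors of effector and tissue cells, had log2 ratios of 0.32 (0.10 to 0.55) and -0.07 (-0.23 to 0.09).

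The Th17 cytokine Il17a was lower in spinal cord. It stood at 503 CPM in brain (463 to 545) and 120 CPM in spinal cord (112 to 129), a log2 ratio of -2.06 (-2.22 to -1.90). Its gene lies on chromosome 1 from 20730905 to 20734496 (GRCm38.p6). Il17a was detected in 25 of 250 brain cells (10.0%, 6.58 to 14.4) and 35 of 1493 spinal cord cells (2.34%, 1.64 to 3.25), and without thinning in 10.9% and 2.78%. A smaller share of spinal cord cells carried the transcript, while the positive cells held a median of 9 UMIs in brain and 7 in spinal cord. Cells with at least 10 Il17a UMIs numbered 18 of 348 and 20 of 1620 and held 87.3% and 88.8% of all Il17a UMIs.

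Other Th17 genes were lower too, though most rested on few counts. Ccr6 stood at 18.7 CPM in brain (22 UMIs) and 5.26 CPM in spinal cord (32 UMIs), a log2 ratio of -1.83 (-2.65 to -0.97). Il1r1, the receptor for IL-1, a cytokine that drives Th17 cells, stood at 20.4 CPM (24 UMIs) and 7.90 CPM (48 UMIs), a log2 ratio of -1.37 (-2.10 to -0.60). Of 15 regulators and receptors, 7 were lower and none was higher, with a median log2 ratio of -0.51. Besides Ccr6 and Il1r1, the lower ones included Irf4, Maf, Tmem176a and Ltb4r1.

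Maf, a factor of IL-10 and IL-21 production, stood at 204 CPM in brain and 111 CPM in spinal cord (log2 ratio -0.87, -1.09 to -0.65). Il23r had 1 and 13 UMIs and was not called (log2 ratio 1.33, -1.40 to 6.74). Rora, Batf, Ahr and Il18r1 were not called, with log2 ratios from -0.37 to -0.13. After thinning before the sum, Il1r1 and Csf2 were no longer called, and without the cells that had an Il17a UMI (38 in brain, 45 in spinal cord) the same pair of genes lost their calls. Of the regulators and receptors, 3 of 14 were lower without those cells.

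Of 5 Th17 cytokine genes compared, 3 were lower and 2 were higher. Besides Il17a, Il21 was lower on 11 and 14 UMIs (log2 ratio -2.02, -3.27 to -0.74). Csf2, which encodes GM-CSF, stood at 29.7 CPM in brain and 12 CPM in spinal cord (35 and 73 UMIs, log2 ratio -1.31, -1.91 to -0.68). Il17f and Il22, which accompany Il17a in Th17 cells, were higher, with log2 ratios of 2.80 (1.22 to 5.10) and 2.09 (0.93 to 3.56). They had 3 and 6 UMIs in brain, and in spinal cord 2 cells held 63.9% of the 108 Il17f UMIs and 77.3% of the 132 Il22 UMIs. Detection of Il17f was 0.8% in brain and 0.871% in spinal cord, and of Il22 0.400% and 0.603%. Il22 was not called once the 2 richest cells of each library were left out, and Il17f was not called after thinning. With the same share of richest cells left out in each library, 2 of the 5 cytokine genes were still compared, and none was higher.

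Other transcripts were counted in the cells with an Il17a UMI. Tmem176a, a membrane protein gene of Th17 cells, was found in 20 of 25 of them in brain (80%, 59.3 to 93.2) and 16 of 35 in spinal cord (45.7%, 28.8 to 63.4). Among cells without Il17a it was found in 12.4% and 10.9%. Ifng was found in 1 of 25 and 0 of 35 of the Il17a-positive cells, the latter allowing a share of up to 10.0%, against 35.6% and 30.5% of the others. Nkg7 was found in 2 of 25 and 3 of 35, and Xcl1 and Gzmk in none of either. Csf2 was found in 4 of 25 and 1 of 35, against 1.33% and 1.78% of the others. Maf was found in 16% of Il17a-positive and 24% of Il17a-negative brain cells, and in 25.7% and 16.3% of those in spinal cord, with overlapping intervals in each tissue. By Nkg7, it was found in 34.3% of positive (25.1 to 44.6) and 15.9% of negative brain cells (10.5 to 22.7). In spinal cord these shares were 18.9% (16.3 to 21.7) and 13.6% (11.1 to 16.5). Maf was thus not particular to Il17a-positive cells. Fos was found in 15 of 25 Il17a-positive brain cells (60%, 38.7 to 78.9) and 6 of 35 in spinal cord (17.1%, 6.56 to 33.6).

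**Figure D3:**
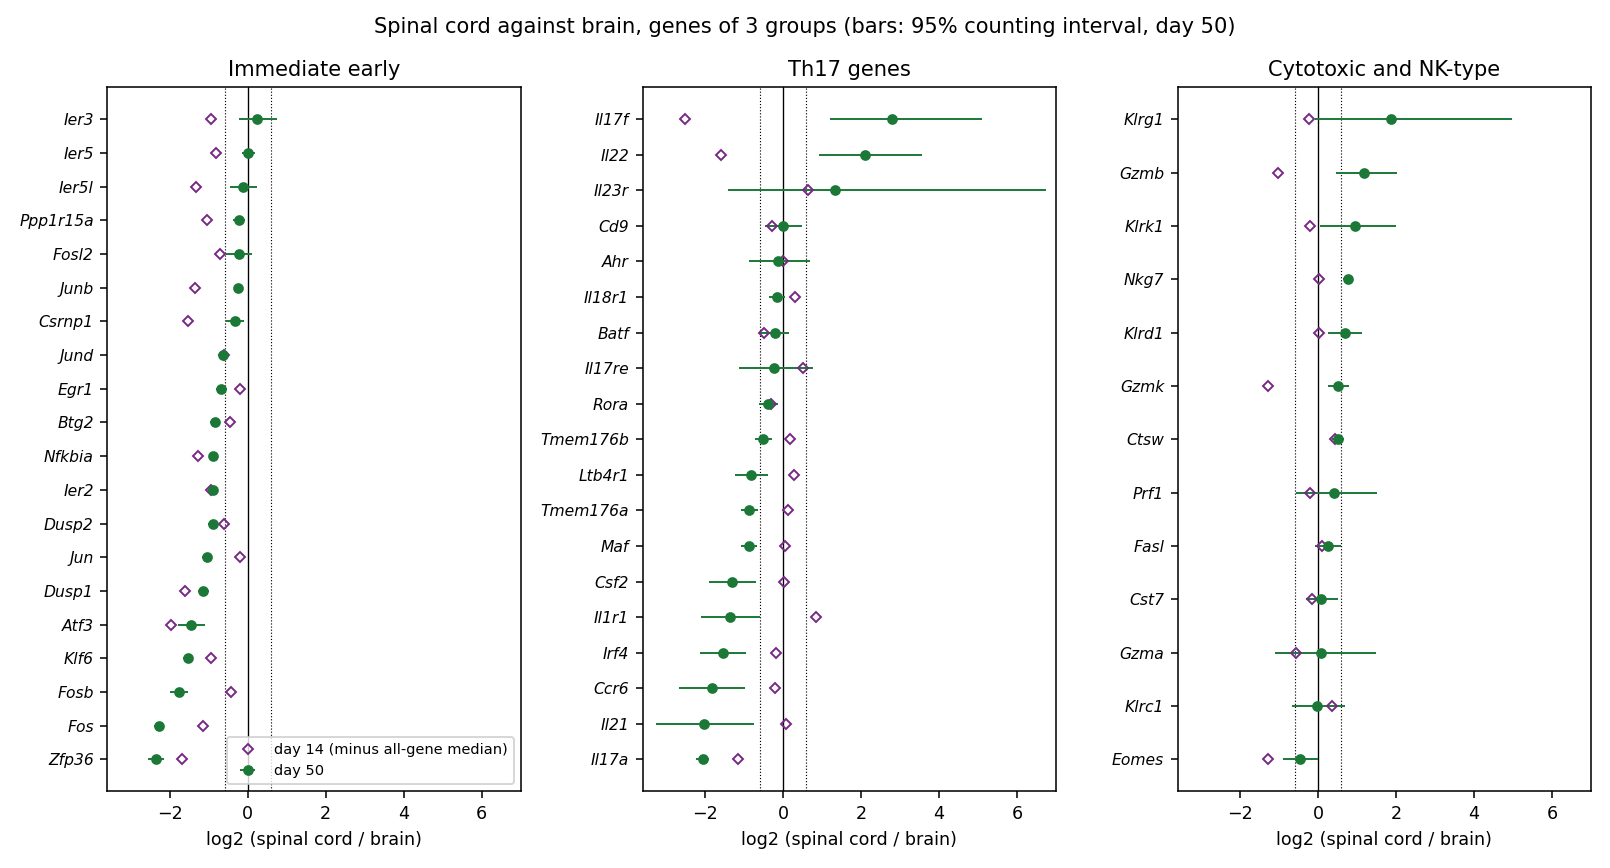
Log2 ratios of spinal cord over brain (x axis) for members of 3 gene groups (y axis): green circles are day 50 with 95% counting intervals, purple diamonds day 14 after subtracting that day's median over all genes, and dotted lines mark 1.5-fold (Klrb1c, with no UMI in brain, is not drawn). Immediate early genes lie mostly below 0 at both days, the Th17 gene Il1r1 lies below 0 at day 50 (-1.37) and above it at day 14 (0.86), and Nkg7 (0.77) and Gzmb (1.19) above 0 at day 50.

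The cytotoxic and natural killer type genes were the list with the most higher members. Of 14 compared, 4 were higher (28.6%, against 2.60% of all genes) and none was lower, with a median log2 ratio of 0.51. Nkg7 stood at 512 CPM in brain (472 to 554) and 872 CPM in spinal cord (849 to 896), a log2 ratio of 0.77 (0.65 to 0.89). Klrd1, which encodes CD94, stood at 44.1 CPM and 70.7 CPM, a log2 ratio of 0.68 (0.26 to 1.12). Gzmb, the gene of granzyme B, had 16 UMIs in brain, 62.5% of them in 2 cells, and a log2 ratio of 1.19 (0.45 to 2.02). The fourth was Klrk1, which encodes NKG2D (11 and 109 UMIs, log2 ratio 0.94, 0.05 to 1.99).

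Only Nkg7 of these 4 rested on more than 100 UMIs in brain. After thinning before the sum, Klrd1 and Gzmb were no longer called and 2 members were higher, and without the cells that had an Il17a UMI 2 were higher and 1 was lower. Gzmk, the gene of granzyme K, stood at 118 CPM and 169 CPM (log2 ratio 0.52, 0.27 to 0.79) and the protease gene Ctsw at 364 CPM and 517 CPM (0.51, 0.36 to 0.65), both under 1.5-fold, although Gzmk was called higher after thinning before the sum (0.67). Eomes, a transcription factor of granzyme K-expressing cells, stood at 46.7 CPM and 33.9 CPM (log2 ratio -0.46, -0.90 to -0.01). The group thus held abundant members with the same direction as Nkg7 and a regulator without it.

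Chemokine ligands went in both directions. Xcl1, the ligand that draws cross-presenting dendritic cells, had the interval farthest above 0 among genes at a mean of 50 CPM or more: 89.1 CPM in brain (72.9 to 108) and 251 CPM in spinal cord (238 to 264), a log2 ratio of 1.49 (1.21 to 1.79). Its gene lies on chromosome 1 from 164931644 to 164935522. It was detected in 24 of 250 brain cells (9.60%, 6.25 to 13.9) and 288 of 1493 spinal cord cells (19.3%, 17.3 to 21.4). Ccl5, a chemokine of effector and memory T cells, stood at 2336 CPM and 3287 CPM (log2 ratio 0.49, 0.44 to 0.55), under 1.5-fold, although it was called higher after thinning before the sum (0.72) and was detected in 34.4% and 49.9% of cells. Ccl4, a chemokine of activated T cells, was lower, 266 CPM against 98.2 CPM (log2 ratio -1.44, -1.64 to -1.23). Ccl1 was called lower (log2 ratio -0.74), but 98.2% of its brain UMIs lay in 2 cells.

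Ccl5 and Nkg7 were found together in 62 of 250 brain cells (24.8%, 19.6 to 30.6) and 590 of 1493 spinal cord cells (39.5%, 37.0 to 42.0). Xcl1 was more frequent in Nkg7-positive cells in both tissues. It was found in 21 of 99 Nkg7-positive brain cells (21.2%) and 222 of 832 in spinal cord (26.7%), and in 3 of 151 Nkg7-negative brain cells (1.99%, 0.412 to 5.70) and 66 of 661 in spinal cord (9.98%, 7.81 to 12.5). The shares of Nkg7-positive cells had overlapping intervals (13.6 to 30.6 and 23.7 to 29.8), those of Nkg7-negative cells did not. Ifng was found in 50 of 99 Nkg7-positive brain cells (50.5%, 40.3 to 60.7) and 308 of 832 in spinal cord (37.0%, 33.7 to 40.4), and in 20.5% and 20.7% of Nkg7-negative cells.

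Plac8, a small cysteine-rich protein gene of effector lymphocytes, stood at 79.0 CPM in brain (63.7 to 96.7) and 222 CPM in spinal cord (211 to 234), a log2 ratio of 1.49 (1.19 to 1.81). Unlike Xcl1 it was not tied to Nkg7: it was found in 9.09% and 7.95% of Nkg7-positive and Nkg7-negative brain cells and in 18.6% and 18.8% of those in spinal cord. Among named genes at a mean of 50 CPM or more, Xcl1, Plac8 and Nkg7 had the intervals farthest above 0. After them came Nr3c1, Gimap4, Neurl3, Aplp2, Rp9, Rbbp6, Pmepa1, P2ry10 and Tiparp. Gimap4, a GTPase of lymphocyte survival, stood at 229 CPM and 350.4 CPM (log2 ratio 0.61, 0.43 to 0.80). Pmepa1, an inhibitor of TGF-β signalling, stood at 55.2 CPM and 89.7 CPM (0.70, 0.33 to 1.09), and Tiparp, a target of the aryl hydrocarbon receptor, at 38.2 CPM and 63.8 CPM (0.74, 0.29 to 1.22).

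**Figure D4:**
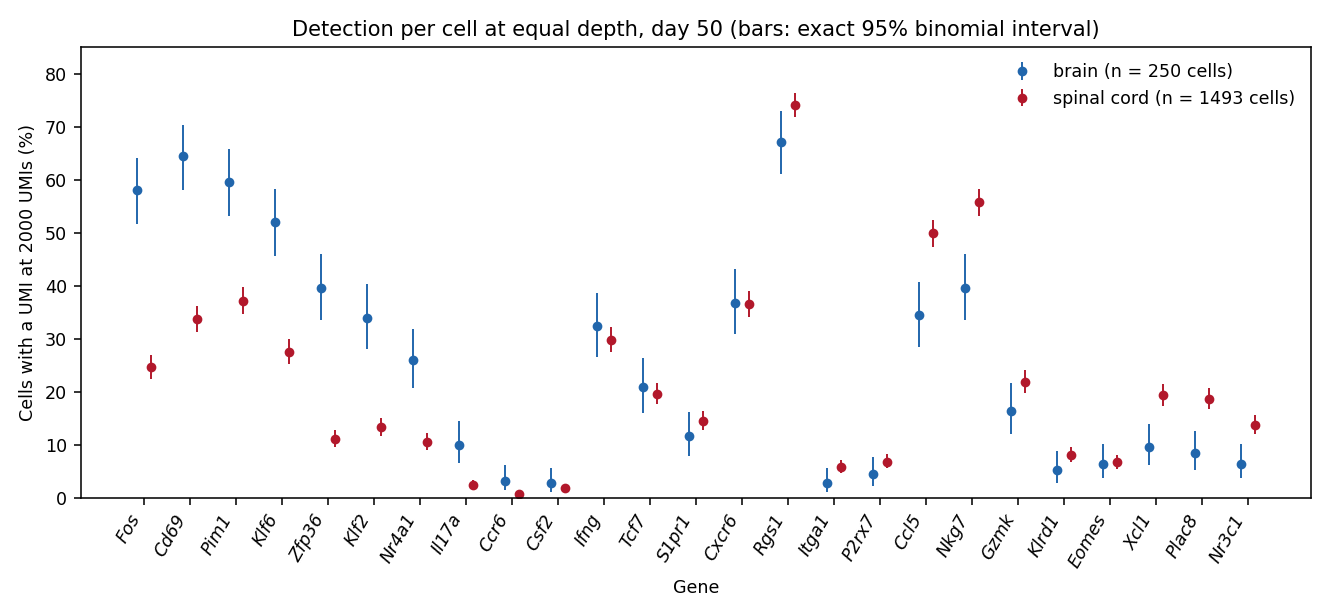
Share of cells with a UMI (y axis, %) of 25 genes (x axis) after thinning to 2000 UMIs, brain in blue (n = 250 cells) and spinal cord in red (n = 1493), with exact 95% binomial intervals. Fos, Cd69, Zfp36 and Klf2 were detected in larger shares in brain, Xcl1, Plac8 and Nr3c1 in larger shares in spinal cord, and Ifng, Tcf7, S1pr1 and Cxcr6 in shares with overlapping intervals.

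Residency genes gave no common direction: 3 of 22 were higher (against 2.60% of all genes) and 3 were lower (against 4.41%). The median log2 ratio was 0.15. The higher ones were Xcl1, Itga1, which encodes the collagen-binding integrin CD49a (17.0 CPM and 31.3 CPM, log2 ratio 0.88, 0.21 to 1.62), and Qpct (23.8 CPM and 44.1 CPM, 0.89, 0.33 to 1.51). The lower ones were Cd69, Nr4a1 and Dusp6, a phosphatase gene of the ERK pathway (52.6 CPM and 28.3 CPM, -0.90, -1.32 to -0.45). Rgs1 and Rgs2, regulators of G protein signalling, were not called (log2 ratios 0.17 and 0.24), nor was the ATP receptor gene P2rx7 (28.9 CPM and 42.0 CPM, 0.54, 0.02 to 1.10). P2rx7 was just under the fold limit and was called higher in 5 of the alternative settings, such as without Scrublet doublets (0.63). Without those doublets 5 of the 22 residency genes were higher, and without the 2 richest cells of each library per gene 6. Itgae, which encodes CD103, had 1 and 13 UMIs. Cd69 and Cxcr6 were found together in 66 of 250 brain cells (26.4%, 21.0 to 32.3) and 208 of 1493 spinal cord cells (13.9%, 12.2 to 15.8), while Cxcr6 alone was detected in 36.8% and 36.6%.

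The surface antibodies to the same proteins were read far less deeply in brain, 4916 UMIs against 60545, with a median of 7 and 26 per cell over all 3. Their raw counts are therefore not compared between tissues, and only shares of the 3 antibodies are given. CD69 made up 30.6% in brain (29.3 to 31.9) and 26.8% in spinal cord (26.4 to 27.1), P2X7R 19.2% (18.1 to 20.3) and 27.4% (27 to 27.7), and CXCR6 50.3% (48.9 to 51.7) and 45.9% (45.5 to 46.3). Within each tissue the antibody followed its transcript to different degrees. Cells with a Cxcr6 UMI had 3.96 times the mean CXCR6 count of cells without one in brain and 2.50 times in spinal cord. For CD69 and its gene these ratios were 1.06 and 1.44, and for P2X7R 2.12 and 1.76.

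Integrins had 1 of 12 members called, Itga1, near the 7.01% of all genes called in either direction. Itga4, the chain of VLA-4 that T cells use to enter the central nervous system, stood at 130 CPM in brain and 143 CPM in spinal cord (log2 ratio 0.14, -0.11 to 0.40), yet was detected in 15.2% and 23.1% of cells. Itgb1 and Itgb2 had log2 ratios of 0.15 and 0.16.

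Genes induced by type I interferon were lower in part: 9 of 21 compared were lower and none was higher, with a median log2 ratio of -0.44. Ifi27l2a, the list member with the most UMIs, stood at 2404 CPM in brain (2317 to 2494) and 1312 CPM in spinal cord (1283 to 1341), a log2 ratio of -0.87 (-0.94 to -0.81). Isg15, a ubiquitin-like modifier, stood at 138 CPM and 75.4 CPM (log2 ratio -0.88, -1.14 to -0.61) and was detected in 17.6% and 10.2% of cells. Oas1a, a sensor of double-stranded RNA, had 18 and 35 UMIs (log2 ratio -1.41, -2.27 to -0.50). Bst2, Irf7, Xaf1 and Zbp1 were not called, with log2 ratios from -0.47 to -0.19. Of 16 genes of the interferon-γ response only Iigp1 and Irgm1 were lower (log2 ratios -1.05 and -0.60), and the median was -0.06. After thinning before the sum, 4 of the 21 type I interferon genes were lower and none of 15 interferon-γ response genes.

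The Th1 genes were not called in either direction, 0 of 12, with a median log2 ratio of 0.11. Ifng stood at 291 CPM in brain (261 to 324) and 326 CPM in spinal cord (312 to 341), a log2 ratio of 0.16 with an interval that included 0, and was detected in 32.4% and 29.8% of cells. Tbx21, which encodes T-bet, had 15 and 88 UMIs (log2 ratio 0.19, -0.61 to 1.08). Of 5 Th2 genes compared 1 was called: Il4 had 0 UMIs in brain and 36 in spinal cord, at least 2.33-fold higher when set against a floor of 3 counts in brain. Gata3, the Th2 factor, was not called (log2 ratio 0.32, -0.08 to 0.75).

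Of 10 follicular helper and stem-like genes, 2 were lower: Bcl6, the follicular helper factor (15 and 25 UMIs, log2 ratio -1.63, -2.61 to -0.60), and Tnfsf8, which encodes CD30 ligand (154 CPM and 100.4 CPM, -0.61, -0.86 to -0.37). Tcf7, the factor of stem-like T cells, stood at 111 CPM and 119 CPM (log2 ratio 0.10, -0.17 to 0.38), and the folate receptor gene Izumo1r at 57.7 CPM and 63.7 CPM (0.14, -0.23 to 0.54). Of 11 inhibitory receptor genes, 2 were lower. Both of these lists stand against 4.41% lower over all genes. Ctla4, which competes with CD28 for its ligands, stood at 300.5 CPM and 177 CPM (log2 ratio -0.76, -0.94 to -0.58), and Cd200 at 58.6 CPM and 35.4 CPM (-0.73, -1.13 to -0.31). Pdcd1, Tigit, Tox and Lag3 were not called. Without the cells that had an Il17a UMI, none of the 11 was lower. Without the 2 richest cells per gene none of 8 compared follicular helper and stem-like genes was lower. With the same share of richest cells left out in each library, 2 of 8 were.

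Mediators of repair and restraint divided: 2 of 11 were higher and 3 were lower, against 2.60% and 4.41% of all genes. Furin, the convertase that activates pro-TGF-β, stood at 332 CPM in brain and 128 CPM in spinal cord (log2 ratio -1.37, -1.55 to -1.19), and was detected in 25.2% and 13.1% of cells. Penk, which encodes proenkephalin, stood at 63.7 CPM and 22.9 CPM (log2 ratio -1.48, -1.89 to -1.05), with 50.7% of its brain UMIs in 2 cells. Il1r2, the decoy receptor for IL-1, had 20 and 45 UMIs (log2 ratio -1.20). Areg, the epidermal growth factor ligand amphiregulin, and Spp1, osteopontin, were higher, with log2 ratios of 0.76 (0.19 to 1.38) and 1.59 (0.63 to 2.75), the latter with 52.9% of its spinal cord UMIs in 2 cells. Il10 had 3 and 18 UMIs and was not called.

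Housekeeping and metabolic groups differed little. None of 22 respiratory chain genes was called (median log2 ratio 0.02), none of 8 heat shock genes (0.17), and none of 10 TGF-β pathway genes (0.32). Of 16 glycolysis genes only hexokinase 2, Hk2, was lower (67.9 CPM and 28.6 CPM, log2 ratio -1.25, -1.64 to -0.85). Of 10 genes of lipid handling only Acaa2, a mitochondrial thiolase, was higher (32.3 CPM and 52.0 CPM, 0.69, 0.20 to 1.21). Of 11 genes of the BCL2 family only Bbc3, which encodes the death-promoting PUMA, was lower (51.8 CPM and 32.1 CPM, -0.69, -1.11 to -0.25). Of 15 cytokine receptor and feedback genes only the kinase gene Pim1 was lower, at 840 CPM and 399 CPM (log2 ratio -1.07, -1.18 to -0.97).

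Of 25 proliferation genes, 5 were lower (against 4.41% of all genes) and none higher, but the counts sat in few cells. Without the 2 richest cells of each library per gene none of 23 was lower, a setting that leaves out a larger share of brain cells. The ubiquitin-conjugating enzyme gene Ube2c stood at 82.3 CPM in brain and 10.4 CPM in spinal cord (log2 ratio -2.99, -3.47 to -2.52), with 97.9% of the brain UMIs in 2 cells. Ccnb1 and Cenpe had 8 brain UMIs each, 75% of them in 2 cells. Mki67 had 11 and 47 UMIs (log2 ratio -0.27, -1.24 to 0.82) and was detected in 0.8% and 1.0% of cells.

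Marker lists of other cells were summed in both libraries. The regulatory T cell list, several of whose genes (such as Ctla4 and Il2ra) activated conventional T cells also express, summed to 811 CPM in brain and 629 CPM in spinal cord and was found in 250 of 348 and 1152 of 1620 cells, while its defining gene Foxp3 had 0 and 1 UMIs. The dendritic cell list summed to 115 CPM in brain and 12.5 CPM in spinal cord, and 125 of its 135 brain UMIs lay in 1 cell, which also held 11 UMIs of Cd3 genes and receptor constant chains. All 4 compared members were lower, among them Cd74, which chaperones MHC class II, at a log2 ratio of -2.89, with 92.1% of its brain UMIs in 2 cells. The monocyte and macrophage list summed to 1.70 and 27.6 CPM, and 57 of its 168 spinal cord UMIs lay in 1 cell. Apoe, its main gene, had 0 and 114 UMIs, at least 7.36-fold higher against the floor in brain. Tcrg-C4 and Trdc, γδ T cell receptor genes, had 0 and 29 UMIs and 1 and 34 UMIs, and their list of 8 summed to 15.3 and 25.2 CPM.

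The B cell list summed to 73.9 and 91.1 CPM, the microglia list to 14.4 and 21.9 CPM, and the natural killer and innate lymphoid list to 7.64 and 7.07 CPM. The CD8 T cell list summed to 4.24 and 4.94 CPM and the neutrophil and neuron lists to 0 and 0.165 CPM each. Plasma cell, astrocyte, endothelial and erythroid lists summed to 44.1 and 36.5, 4.24 and 2.14, 37.4 and 31.8, and 1.70 and 0.494 CPM. Oligodendrocyte genes summed to 85.7 and 75.8 CPM and were found in 76 of 348 and 384 of 1620 cells, with at most 4 UMIs in any cell. Without the cells that held at least 5 UMIs summed over the dendritic cell, B cell and monocyte and macrophage lists (1 in brain, 25 in spinal cord), 277 genes were higher and 448 lower.

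T cell receptor β variable segments, read rarely in a 3′ library, gave 62 UMIs in 47 brain cells and 314 UMIs in 270 spinal cord cells. Trbv20 took 17.7% of them in brain (11 UMIs, 9.20 to 29.5) and 5.41% in spinal cord (17 UMIs, 3.19 to 8.53), intervals that did not overlap. It was picked from 35 segments after the values were seen, and its day 14 shares were 9.69% in brain and 9.64% in spinal cord. Trbv12-2 was the most read segment in both, at 19.4% (10.4 to 31.4) and 17.2% (13.2 to 21.8). Trbv13-2 took 1.61% (0.0408 to 8.66) and 8.92% (6.01 to 12.6), and Trbv1 1.61% and 9.87%, with overlapping intervals.

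The same tissues were compared at day 14, with ratios taken relative to that day's all-gene median of 0.20. There 887 of 13868 genes were higher (6.40%) and 866 lower (6.24%), 12.6% in all, and no library is shared by the comparisons of the separate days. Of the 455 genes lower at day 50, 103 were also lower at day 14 (22.6% of them, and 18.7% of the 551 genes lower at day 14 that were compared at both days). Of the 268 higher genes, 19 were higher at day 14 too (7.09%, and 3.54% of 537). Opposite calls were made for 30 of the lower (6.59%) and 21 of the higher genes (7.84%). Of all 10302 genes compared at both days, 537 were higher and 551 lower at day 14. The shares with opposite calls were thus near those of all genes. Across the 2296 genes at a mean of 50 CPM or more over the 4 libraries, the tissue ratios at day 50 and day 14 correlated with a Pearson r of 0.17 and a Spearman rho of 0.03, given as a description.

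Groups differed in whether day 14 looked alike. Of the 20 immediate early genes, 16 were lower at day 14 and none higher (median -0.96), and of the type I interferon genes 15 of 21 (median -1.02). Fos stood at 460 CPM in brain and 240.2 CPM in spinal cord at day 14 (log2 ratio -1.14), and Klf2 at 317 and 131 CPM (-1.48). The Th17 regulators had 3 of 15 higher and none lower at day 14 (median 0.14), while Il17a was lower at both days (182 and 94.1 CPM, log2 ratio -1.15). Of 15 cytotoxic genes compared at day 14, 1 was higher and 3, Gzmk, Gzmb and Eomes, were lower (median -0.16). Gzmk stood at 56.5 CPM in brain and 26.7 CPM in spinal cord (-1.28), and Nkg7 stood at 659 and 763 CPM (0.01). Xcl1 stood at 60.2 and 87.2 CPM (0.34) and Plac8 at 433 and 422 CPM (-0.24), neither called. The change of the tissue difference between days was not tested.

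**Figure D5:**
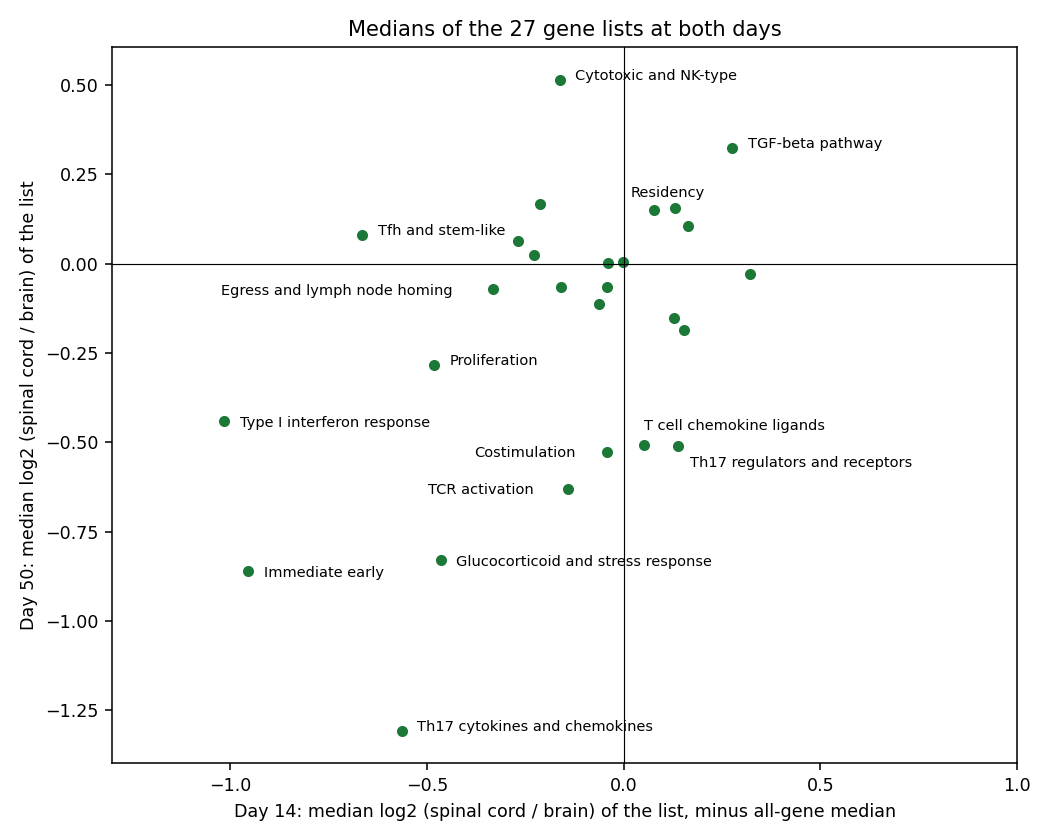
Median log2 ratio of spinal cord over brain for 27 gene lists, at day 14 after subtracting the all-gene median (x axis) and at day 50 (y axis), each point a list. Immediate early (-0.96 and -0.86) and type I interferon genes (-1.02 and -0.44) lie below 0 at both days, the Th17 regulators at 0.14 and -0.51, and the cytotoxic genes at -0.16 and 0.51.

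Technical measures also differed between the day 50 libraries, and their part in the results was not tested. Brain cells held fewer UMIs, and Scrublet called 24 of 348 brain cells (6.90%) and 12 of 1620 spinal cord cells (0.741%) as doublets. The doublet rate expected from the number of cells was lower for brain, opposite to these shares. Whether the called cells are true doublets was not tested. Without those cells 258 genes were higher and 435 lower. Gm42418, a gene model that overlaps ribosomal RNA, stood at 2122 CPM in brain and 1333 CPM in spinal cord, with 26.3% of its brain UMIs in 2 cells. The immediate early list had 12 or 13 lower members under every alternative that used the same fold limit.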

How the data were processed

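Single-cell RNA and surface antibody counts from sorted CD4 T cells were analysed, with 1 RNA library for each tissue and day. The authors deposited raw UMI counts per gene and cell, made with Cell Ranger 6.1.1 on build mm10, per the submitters' processing notes. The gene lists, the members and the named genes were chosen with earlier results of these data known. Barcodes with under 500 detected genes or over 10% mitochondrial counts were left out, 20 and 6 in brain and 23 and 16 in spinal cord, where a barcode may fail both. Doublets were kept, and Scrublet (scanpy 1.11.5) was run as an alternative.

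Counts were summed over the cells of a library and divided by the library's total (numpy 2.4.6, pandas 2.3.3). Ratios carry exact conditional binomial intervals, levels exact Poisson intervals and shares Clopper-Pearson intervals at 95% (scipy 1.17.1). The code was tested on simulated data. TMM and median-of-ratios scaling used edgeR 4.0.16 in R 4.3.3 and numpy, and figures matplotlib 3.10.9. Brain had 1177903 UMIs, so that 3 counts equal 2.55 CPM, and spinal cord 6078142 UMIs, so that 3 counts equal 0.494 CPM.

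Named genes were the 12 higher and 12 lower genes at a mean of 50 CPM or more whose intervals lay farthest from 0, leaving out mitochondrial, ribosomal protein and numbered gene models. They also were up to 3 called members of each list, a set of focal genes, called members of lists for other cells at 10 UMIs or more, and up to 10 genes with opposite calls at the separate days. Other list members were named after their values were seen. The feature names of the P2X7R and CXCR6 antibodies read CD3 and CD16 in the deposited table, and their identifiers were used. Alternatives covered doublets, cell filters, thinning, cell weights, richest cells, scaling, the count and level minimum, and the call rule. Some list members that were counted are not reported here by name. Mx1 had no row in the feature table used here.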

Additional observations from a re-analysis of the deposited data

Results flagged for a closer look

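These genes had tissue differences past the call rule in opposite directions on day 50 and day 14. Values are log2 ratios at day 50, with the day 14 value relative to the all-gene median in parentheses. The difference between days was not tested for any of them, each day is 1 library per tissue, and many rest on few UMIs. Opposite calls were made for 6.59% of the lower and 7.84% of the higher genes of day 50. Over all genes compared at day 14, 6.40% were higher and 6.24% lower, so these shares are near those of all genes.

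Higher in spinal cord at day 50 and lower at day 14 were the Th17 cytokines Il17f at 2.80 (-2.52) and Il22 at 2.09 (-1.60), the granzyme gene Gzmb at 1.19 (-1.02) and the growth factor gene Areg at 0.76 (-1.38). The γδ T cell receptor gene Trdc stood at 2.72 (-1.89), the antibody light chain gene Igkc at 0.85 (-1.64), Ly6c1 at 1.17 (-1.21), Neurl3 at 0.85 (-0.65) and P2ry10 at 0.72 (-0.59). Il4 was at least 2.33-fold higher at day 50, with no UMI in brain, and lower at day 14 (-2.38).

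Lower at day 50 and higher at day 14 were the Th17 receptor gene Il1r1 at -1.37 (0.86) and the transcription factor genes Egr2 at -1.46 (1.46) and Bcl6 at -1.63 (0.60). The phosphatase gene Dusp6 stood at -0.90 (0.74), the lymphotoxin gene Lta at -1.25 (0.73), B3galt2 at -1.72 (1.07) and Igfbp7 at -1.33 (0.67). The histone genes Hist1h1e and Hist2h2ac stood at -1.29 (0.99) and -1.57 (0.95), and Gm42418, which overlaps ribosomal RNA, at -0.67 (0.86).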

How the results depend on the processing

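No paired analysis was possible because only 1 library represents a tissue at each day. Against 268 higher and 455 lower genes, weighting each cell equally gave 481 and 559. Leaving out the 2 richest cells per gene gave 694 and 203, which removes 2 of 348 brain cells but 2 of 1620 spinal cord cells. A mean of at least 50 CPM left 21 and 76, a 2-fold limit 132 and 252, and the 1.5-fold limit without the interval 1419 and 1206. At 50 CPM or more in each comparison, 1 gene was higher and 27 were lower at both days, against 19 and 103. The Th17 cytokine median turned from -1.31 to 0.48 when cells were thinned before summing, where 4 of the 5 genes could be compared. The other settings gave 234 to 316 higher genes and 313 to 517 lower ones. Among named genes the calls of Gimap4, Klrd1 and Rbbp6 were lost in 4 settings each, those of P2ry10 and Rp9 in 3, and those of Il1r1, Csf2, Gzmb, Il22 and Pmepa1 in 2. Settings in which a gene fell under the minimum of 10 UMIs were not counted, so these are lower limits. Of the 5 Th17 cytokine genes, 2 were still compared without the same share of richest cells and 3 without the cells that had an Il17a UMI. P2rx7 gained a higher call in 5 settings and Ccl5 and Gzmk in 2 each, while Eomes gained a lower call in 2. S1pr1 gained a call in 1 setting, thinning before the sum. Depth limits brain most: 3 counts there equal 2.55 CPM, against 0.494 CPM in spinal cord.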
